A study of Mus musculus with 2 samples.

Results

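The semaphorins and their plexin and neuropilin receptors were taken as every protein-coding gene whose symbol begins with Sema and a digit or with Plxn, together with Nrp1 and Nrp2. The rule found 31 genes, 20 semaphorin ligands and 11 receptors, among 21474 protein-coding genes and 43346 annotated genes in all. Total RNA longer than 200 nucleotides came from neural tube of embryos of the B6NCrl mouse strain at 15.5 days, with no treatment or engineered allele named in the labels. There were 2 libraries, biological replicates 1 and 2 in the labels, the first pooled from 78 and the second from 62 male and female embryos. Both belong to 1 group, so no treatment, genotype or age could be compared, and an SD below measures only the spread between these 2 pools. In such bulk tissue, fewer cells of a type and less RNA per cell cannot be told apart.

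Semaphorins are guidance proteins that share an extracellular sema domain, and growing axons, migrating neurons and vessels read them through plexins. Class 3 semaphorins are secreted, and most of them need a neuropilin to hold them to a class A plexin, whereas classes 4 to 7 are anchored in the membrane and mostly bind plexins directly. A bound plexin acts through its cytoplasmic GTPase-activating domain on small GTPases and so on the growth cone's cytoskeleton, and in the developing spinal cord the family is known for steering motor, sensory and commissural axons.

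Nearly the whole family was present. Of the 31 genes, 29 reached 1 TPM (a gene's level corrected for length and for library size) in both libraries, 19 of 20 ligands and 10 of 11 receptors, where 63.4% of all protein-coding genes did. The exceptions were the secreted ligand Sema3g, at 0.57 and 0.39 TPM in replicates 1 and 2, and the receptor Plxnb3, at 0.76 and 0.57 TPM. Both still had reads: Sema3g held 56 and 46 estimated counts and Plxnb3 83 and 88, above the 3 counts taken as the floor, which stand for 0.0305 and 0.0254 TPM of Sema3g and 0.0275 and 0.0194 TPM of Plxnb3. The members together summed to 545 and 564 TPM and took 0.177% and 0.183% of the counts on annotated genes, which were 34678043 in replicate 1 and 41355355 in replicate 2. The highest member, Plxnb2, lay above 85.2% of protein-coding genes by mean TPM, and the lowest, Sema3g, above 29.6%.

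**Figure D1:**
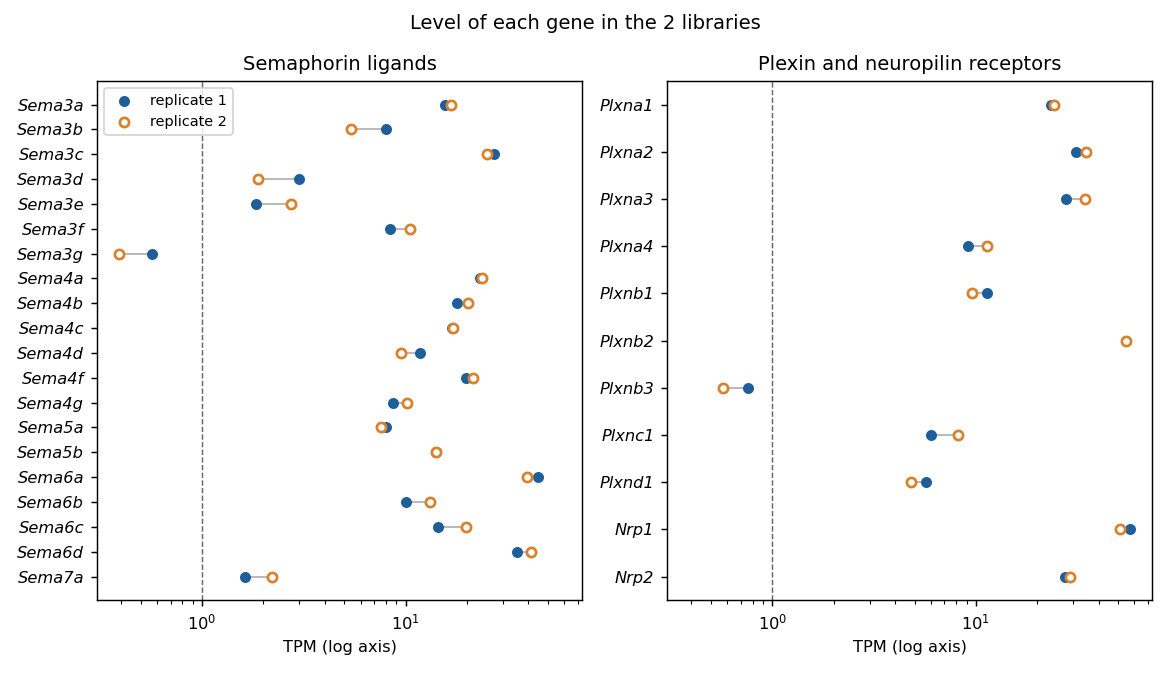
TPM of each of the 20 ligands (left panel) and 11 receptors (right panel) on a log axis, by class from the top, with replicate 1 as filled points and replicate 2 as open points joined by a line and a dashed line at 1 TPM. Sema3g among the ligands and Plxnb3 among the receptors are the genes left of the dashed line, and Sema6a, Sema6d, Plxnb2 and Nrp1 lie farthest to the right.

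Among the ligands, the membrane-bound classes carried most of the signal. Class 6 summed to 105 TPM in replicate 1 and 113 TPM in replicate 2, which was 36.0% and 37.6% of all semaphorin TPM. Class 4 followed with 97.9 and 102 TPM, class 3 with 64.6 and 62.5 TPM and class 5 with 22.1 and 21.7 TPM. The lone class 7 member was at 1.62 and 2.21 TPM. Over all transcripts the order of the classes was the same in both libraries, and classes 4 to 7 together made up 77.8% and 79.3% of the ligand total. Over transcripts annotated as protein-coding alone, a restriction chosen after seeing the data, the leading order turned: class 4 summed to 86.1 and 87.9 TPM and class 6 to 72.2 and 78.9 TPM, so class 4 was the higher in both libraries.

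**Figure D2:**
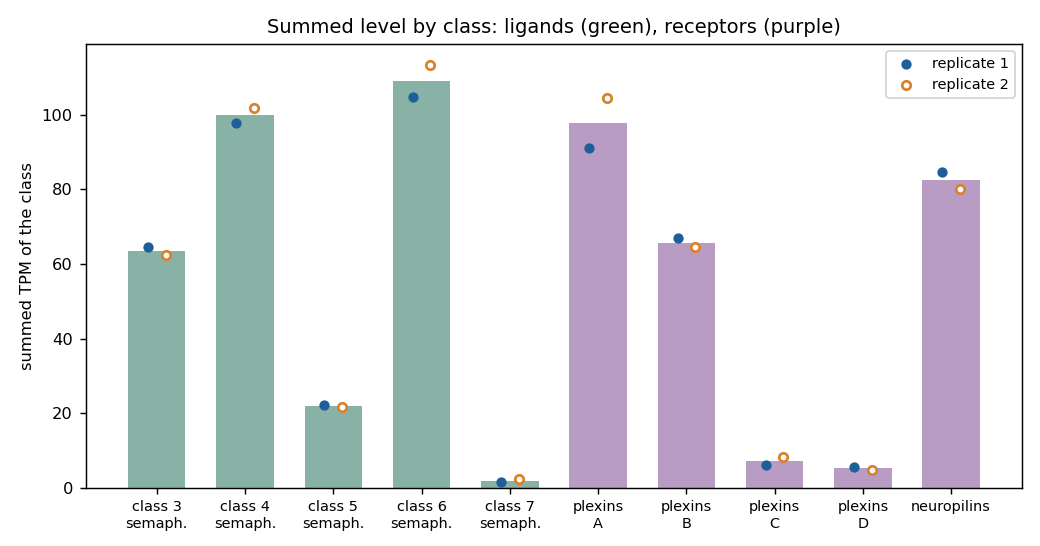
Summed TPM of each ligand class (green) and receptor class (purple); bars are the mean of the libraries and points the single libraries. Class 6 semaphorins (105 and 113 TPM) and class A plexins (91.1 and 104.5 TPM) are the tallest bars of their kind over all transcripts, but over coding transcripts alone class 4 (86.1 and 87.9 TPM) exceeded class 6 (72.2 and 78.9 TPM) and class A plexins overlapped neuropilins. Class 7 semaphorins and plexins C and D are the lowest bars.

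The secreted class 3 ranged widely. Sema3c, a secreted ligand known for cardiac outflow and axon guidance, led with 27.2 and 25.0 TPM. Sema3a, the growth-cone collapsing repellent of Nrp1-bearing axons, had 15.7 and 16.7 TPM. Each was above every other class 3 gene in both libraries, and their own ranges did not overlap. Sema3f, which repels axons that bear Nrp2, had 8.35 and 10.4 TPM (mean 9.40 ± 1.48, SD, n = 2). Sema3b, also a neuropilin ligand, had 7.99 and 5.36 TPM, so that Sema3f lay above Sema3b in both libraries. Sema3d, known from heart development, had 2.98 and 1.89 TPM, and Sema3e, which binds Plxnd1 without a neuropilin, had 1.84 and 2.73 TPM. The ranges of these last genes overlapped. The 4 members on chromosome 5 of GRCm38, Sema3d (chr5:12383385-12588948), Sema3a (chr5:13125414-13602565), Sema3e (chr5:14025276-14256689) and Sema3c (chr5:17574281-17730268), all on the plus strand, lie within 5.35 Mb. From low to high coordinate, low and high levels alternated, with means of 2.43, 16.2, 2.29 and 26.1 TPM.

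Sema3f also held the alternative exon whose share differed most between the libraries among those examined in Sema3f, Sema6a, Sema6d and Nrp2. An exon of 93 bases, skipped in the shorter protein, was in 31.1% of the TPM of its complete coding transcripts in replicate 1 and 16.8% in replicate 2, estimated from 404 and 555 coding counts. It lies at chr9:107691356-107691448 on the minus strand of GRCm38, and is shown here because it is the segment on which that share rests. Capitals mark the optional exon and lower case the 12 bases on either side, from GENCODE transcripts.
Sema3f optional exon: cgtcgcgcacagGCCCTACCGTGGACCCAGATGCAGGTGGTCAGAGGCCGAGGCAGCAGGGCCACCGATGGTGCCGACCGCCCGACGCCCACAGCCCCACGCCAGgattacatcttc

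Class 4 was the most even of the larger classes, with all 6 genes detected between 9.38 and 23.4 TPM on average. Sema4a, a transmembrane ligand of plexins B and D1 studied in retina and immune cells, had 23.2 and 23.6 TPM. Sema4f had 19.7 and 21.4 TPM and Sema4b, whose cytoplasmic end binds a postsynaptic scaffold, 17.8 and 20.2 TPM. Over all transcripts Sema4a lay above both in each library, and the ranges of Sema4f and Sema4b overlapped. Over coding transcripts alone Sema4f, at 19.1 and 20.4 TPM, was above Sema4a, at 17.9 and 19.5 TPM, in both libraries. Sema4c, the ligand of Plxnb2, had 16.9 and 17.0 TPM. Sema4d, the Plxnb1 ligand also known as the lymphocyte antigen CD100, had 11.8 and 9.52 TPM, and Sema4g had 8.64 and 10.1 TPM. Sema4c kept above both in each library, whereas Sema4d and Sema4g overlapped.

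Class 5 proteins carry thrombospondin repeats beside the sema domain. Sema5b had 14.1 TPM in each library (14.06 and 14.14) and Sema5a 8.01 and 7.54 TPM. Sema5b was the higher in both, with a Sema5a to Sema5b ratio of 0.551 ± 0.0258 over all transcripts and 0.864 ± 0.114 over coding transcripts alone (SD, n = 2). Sema7a, which is held by a glycolipid anchor and signals through an integrin as well as Plxnc1, was the lowest detected ligand by mean TPM. Its range over the libraries overlapped those of Sema3d and Sema3e.

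Class 6 held the leading ligands. Sema6a, the transmembrane ligand of Plxna2 and Plxna4 that keeps motor neuron bodies inside the cord at exit points, had 44.9 and 39.2 TPM (42.1 ± 4.02, SD, n = 2). Sema6d, a ligand of Plxna1, had 35.4 and 41.1 TPM (38.3 ± 4.07, SD, n = 2). Their ranges overlapped, and both exceeded every other ligand in both libraries. Sema6c had 14.4 and 19.8 TPM and Sema6b 10.1 and 13.2 TPM, so Sema6a was 3.71 ± 1.05 times as high as Sema6b over all transcripts and 2.27 ± 0.608 times over coding transcripts alone (SD, n = 2). Sema6c was above Sema6b in both libraries over all transcripts and below it in both over coding transcripts alone, at 7.16 and 11.1 TPM against 10.1 and 13.2 TPM.

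Sema6d was transcribed as several coding forms. Between the exons on either side of 1 junction, 2 optional exons can enter: the first, of 57 bases at chr2:124660705-124660761, was in 35.3% and 36.2% of the TPM of complete coding transcripts. The second, of 168 bases at chr2:124662204-124662371, was in 30.3% and 31.4%. Both shares moved by less than 2 percentage points between the libraries. The optional exons (capitals, plus strand, GRCm38) with 12 bases on either side are shown because they are the bases by which the proteins differ, and both enter between the same flanks.
Sema6d first optional exon: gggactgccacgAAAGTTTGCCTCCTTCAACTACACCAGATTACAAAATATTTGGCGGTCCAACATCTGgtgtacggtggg
Sema6d second optional exon: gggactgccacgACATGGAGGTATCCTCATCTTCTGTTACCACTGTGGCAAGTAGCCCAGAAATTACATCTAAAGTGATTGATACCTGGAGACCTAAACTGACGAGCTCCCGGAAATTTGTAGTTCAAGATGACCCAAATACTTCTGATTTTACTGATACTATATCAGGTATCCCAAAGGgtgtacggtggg
Sema6a likewise held a first optional exon of 51 bases in 26.6% and 23.1% of its coding TPM and a second of 165 bases in 62.4% and 63.0%. Its longer exon was thus the more used of the pair in each library, the reverse of the order in Sema6d.

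Among the receptors, class A plexins, the signalling partners of the neuropilins and of class 6 ligands, summed to 91.1 TPM in replicate 1 and 104.5 TPM in replicate 2. Plxna2 had 31.0 and 34.7 TPM, Plxna3 27.6 and 34.2 TPM and Plxna1 23.3 and 24.3 TPM. Plxna4, a co-receptor for Sema3a on sensory axons and a direct receptor for Sema6a, was lower at 9.15 and 11.3 TPM. Plxna2 was at 3.22 ± 0.223 times the TPM of Plxna4 (SD, n = 2), while Plxna2 and Plxna3 overlapped over all transcripts. They did not overlap over coding transcripts alone, where Plxna2 had 27.9 and 30.1 TPM and Plxna3 15.6 and 18.3 TPM, which also put Plxna3 below Plxna1 in both libraries. On that measure class A plexins summed to 76.0 and 84.0 TPM and neuropilins to 81.8 and 77.9 TPM, with overlapping ranges.

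Class B plexins were dominated by 1 gene. Plxnb2, needed for closure of the neural tube in mice, had 54.9 and 54.4 TPM (54.6 ± 0.332, SD, n = 2). Plxnb1, the Sema4d receptor, had 11.3 and 9.58 TPM, and the ratio of Plxnb2 to Plxnb1 was 5.27 ± 0.576 (SD, n = 2). Plxnb3, a Sema5a receptor, was below 1 TPM as given above. Part of the Plxnb2 total came from RNA that is not annotated as coding: the coding transcript of 6377 nucleotides took 47.4% and 46.2% of the gene's TPM, against 44.1% and 40.0% for a noncoding transcript of 841 nucleotides. By counts, which do not divide by length, the coding transcript held 86.7% and 85.8% and the noncoding one 9.55% and 8.78%. Over coding transcripts alone, Plxnb2 was at 26.7 and 26.2 TPM and the ratio to Plxnb1 was 2.81 ± 0.344 (SD, n = 2).

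The remaining plexins were low. Plxnc1, the Sema7a receptor, had 6.03 and 8.18 TPM. Plxnd1, the endothelial receptor for Sema3e that is also made by thymocytes and some neurons, had 5.68 and 4.77 TPM. Both were below every class A plexin in both libraries.

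The neuropilins, which bind class 3 semaphorins and vascular endothelial growth factors but have little signalling of their own, summed to 84.7 and 80.2 TPM. Nrp1, the Sema3a receptor, at chr8:128358604-128503363 on the plus strand, had 57.4 and 51.1 TPM (54.2 ± 4.45, SD, n = 2). Nrp2, the Sema3f receptor, at chr1:62703285-62818695 on the plus strand, had 27.3 and 29.1 TPM (28.2 ± 1.27, SD, n = 2). Nrp1 was the higher in both libraries, at 1.93 ± 0.244 times Nrp2 (SD, n = 2). Over coding transcripts alone Nrp1 was the highest member of the family, with all of its TPM in the 1 transcript listed.

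Nrp2 is made with either of 2 final coding exons, a and b, and the tissue held them in nearly equal amounts. Exon a was in 51.3% and 52.1% of the complete coding TPM in replicates 1 and 2, and exon b in 48.7% and 47.9%, from 3095 and 3993 coding counts. An optional exon of 51 bases before exon a was in 9.93% and 13.5%, and a form of the preceding exon with 15 added bases in 35.3% and 37.8%. The last 30 bases of each coding sequence, with the final 9 bases before the stop codon in capitals, are shown because the end of Nrp1 is known to bind the PDZ domain of the adaptor Gipc1. They lie at chr8:128502785-128502814 for Nrp1, chr1:62815608-62815637 for Nrp2 a and chr1:62795960-62795989 for Nrp2 b, all on the plus strand of GRCm38.
Nrp1: aacccacagagtaattacTCAGAGGCGtga
Nrp2 exon a: aatcatcagaagtgctgcTCGGAGGCAtga
Nrp2 exon b: ctagagcaagagcggggcTCGCACTGCtga
Exon a matched Nrp1 at 7 of these 9 bases and at 16 of the last 27 coding bases. Exon b matched at 3 of 9 and 6 of 27. The 2 insertions enter at the same place, shown with capitals for the added bases and 12 bases on either side, at chr1:62812534-62812584 and chr1:62786302-62786316.
Nrp2 optional exon: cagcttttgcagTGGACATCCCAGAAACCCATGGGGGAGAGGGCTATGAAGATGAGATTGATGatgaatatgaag
Nrp2 added bases: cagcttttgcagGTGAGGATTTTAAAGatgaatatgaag

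**Figure D3:**
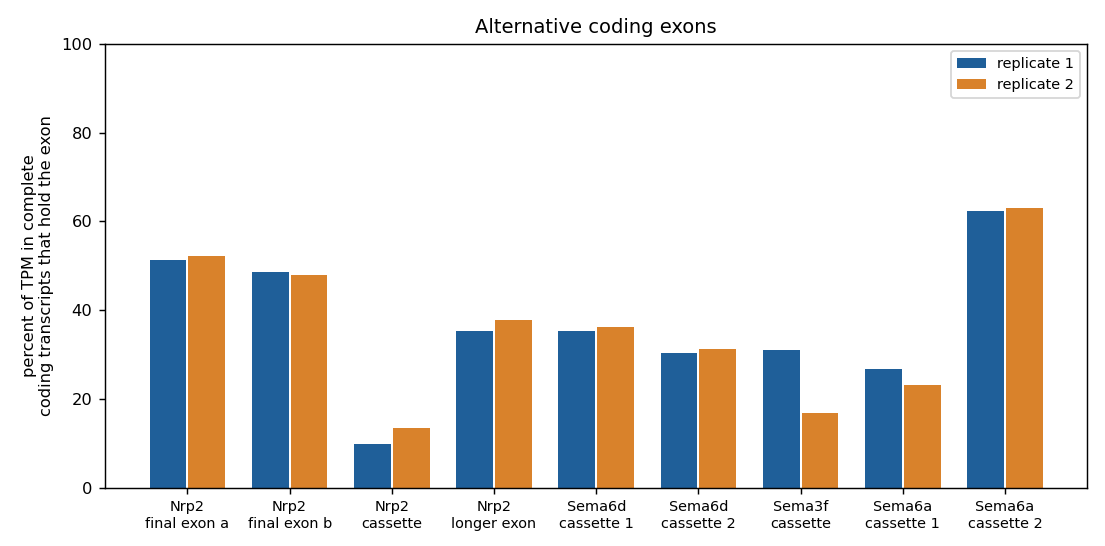
Percent of the TPM of a gene's complete coding transcripts that contain each alternative exon, for Nrp2, Sema6d, Sema3f and Sema6a, with replicate 1 in blue and replicate 2 in orange. The Nrp2 final exons a and b are close to even, and the Sema3f exon (31.1% and 16.8%) is the pair of bars that differs most.

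Averaged per gene, ligands were lower than receptors, although the more numerous ligands summed higher. Mean log2(TPM + 1) over the 20 ligands was 3.52 and 3.56 in replicates 1 and 2, against 4.02 and 4.07 over the 11 receptors, a difference of -0.51 ± 0.0036 (SD, n = 2). The medians were 12.9 and 13.7 TPM for ligands and 23.3 and 24.3 TPM for receptors. Summed, the ligands had 291 and 302 TPM and the receptors 254 and 262 TPM, a ratio of 1.15 ± 0.0044 (SD, n = 2). At least 10 TPM in both libraries was reached by 11 of 20 ligands and 6 of 11 receptors. The same share over all protein-coding genes was not computed, so these counts do not set the members apart. The median of mean TPM was 16.2 over detected members and 19.6 over detected protein-coding genes. The levels of the groups overlapped almost entirely, from 0.48 to 42.1 TPM on average in ligands and from 0.66 to 54.6 TPM in receptors, and no test over genes was made because genes are not replicates of a condition. The SD does not measure the spread over genes.

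Ordered by mean TPM over all transcripts, the 31 genes form 30 pairs of neighbours, of which 19 had overlapping ranges over the libraries and 11 did not. Plxnb2 and Nrp1 headed the order with overlapping ranges, then came Sema6a and Sema6d, and then Plxna2, Plxna3 and Nrp2, each of these sets separated from the next. Sema3c followed by itself, ahead of Plxna1 and Sema4a. Below them the order ran through Sema4f, Sema4b, Sema6c and Sema4c, then Sema3a, then Sema5b. A run of 6 genes whose neighbours overlapped (Sema6b, Sema4d, Plxnb1, Plxna4, Sema3f, Sema4g) came next, ahead of Sema5a, Plxnc1, Sema3b and Plxnd1. Sema3d, Sema3e and Sema7a, and last Plxnb3 and Sema3g, closed it. Over the 31 genes the Spearman correlation of TPM between the libraries was 0.985, a description over genes of 2 pools of 1 tissue, and no gene moved by more than 5 ranks. Some of this order turned over coding transcripts alone: of 447 pairs of members with the same order in both libraries over all transcripts, 18 had the opposite order in both, 3 of them within a class (Sema4a and Sema4f, Sema6c and Sema6b, Plxna3 and Plxna1).

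For 13 textbook ligand and receptor pairs the ligand was the lower partner in 8 in both libraries and the higher in 4. Sema3a and Sema3f were below their neuropilins: the Sema3a to Nrp1 ratio of TPM was 0.300 ± 0.0377 and that of Sema3f to Nrp2 0.332 ± 0.0377 (SD, n = 2). Sema3c came near Nrp2, with ratios of 0.997 and 0.860. Sema4c was at 0.310 ± 0.0037 of Plxnb2, Sema5a at 0.255 ± 0.0489 of Plxna3, and Sema7a at 0.269 ± 0.0011 of Plxnc1 (SD, n = 2). Of the rest below 1, Sema5b was at 0.593 of Plxna1 and Sema3e at 0.448 ± 0.176 of Plxnd1. The ligands above their receptors were membrane-bound: Sema4a stood at 4.52 ± 0.619 times Plxnd1, Sema6a at 4.19 ± 1.02 times Plxna4 and 1.29 ± 0.227 times Plxna2, and Sema6d at 1.61 ± 0.125 times Plxna1 (SD, n = 2). Sema4d and Plxnb1 were level, at 1.04 and 0.994. Over coding transcripts alone the Sema6a to Plxna2 ratio turned to 0.891 ± 0.120 and the Plxna1 to Plxna3 ratio, 0.776 ± 0.0942 over all transcripts, to 1.41 ± 0.117 (SD, n = 2). The same restriction put Sema4c at 0.607 of Plxnb2, Sema5a at 0.462 of Plxna3, Sema5b at 0.380 of Plxna1 and Sema6a at 2.56 times Plxna4, each over 1.5 times from its value over all transcripts, with its direction kept. These pairings compare RNA of the whole tissue and do not show which cells made either partner.

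The libraries differed strongly in markers of other tissues. Over marker lists, summed TPM in replicate 1 against replicate 2 was 261 and 9.73 for 8 thymocyte genes, 255 and 10.8 for 4 thymic epithelium genes, 629 and 8.09 for 5 epithelial genes and 234 and 24.0 for 4 smooth muscle genes. In replicate 2 the thymocyte gene Cd3g and the thymic epithelium gene Foxn1 were listed at 0, against 93.0 and 9.69 TPM in replicate 1. The thymocyte genes Cd8a (0.48 and 0 TPM), Cd4 (0.50 and 0.14 TPM) and Dntt (0.30 and 0.17 TPM) were low in both libraries. Most of the replicate 2 sums came from the thymocyte gene Lck, at 9.17 TPM, and the thymic epithelium gene Ccl25, at 10.7 TPM. The difference was smaller for 6 mesenchyme genes, at 1136 and 879 TPM, and for 5 endothelial genes, at 163 and 136 TPM. Skeletal muscle genes went the other way, with 5 of 5 higher in replicate 2 and sums of 134 and 237 TPM. Among them Acta1 had 76.4 and 142 TPM in replicates 1 and 2. Markers that define the labelled tissue were high in both: 6 neuronal genes summed to 3238 and 3938 TPM and 5 radial glia genes to 1672 and 2103 TPM. The 5 motor neuron genes were uneven and summed to 86.6 and 90.6 TPM. Isl1 (41.5 and 39.7 TPM) and Slc18a3 (29.9 and 35.0 TPM) led them. Chat had 3.34 and 3.66 TPM, and Mnx1, at 1.05 and 0.77 TPM, was not detected. Of 6 forebrain and midbrain genes 1 reached 1 TPM in both.

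No member differed between the libraries by 2-fold. Of the 29 that passed a minimum of 1 TPM on average and 50 summed counts, 0 reached 2-fold on the (TPM + 1) scale in either direction, where 5.32% of the 15736 genes that passed did, and 0 reached 1.5-fold, where 11.2% did. With 1 library on each side there was no test. The log2((TPM + 1) ratio) of replicate 1 over replicate 2 ran from -0.43 for Sema6c to 0.50 for Sema3b, and its median size was 0.21 over the members and 0.17 over all genes. Counts were deep enough to separate many genes. By exact 95% intervals, which cover counting error only, the ratio of scaled counts excluded 1 in 23 of 31 members, 6 above 1 and 17 below. The same share over all genes was not computed, so these counts do not set the members apart from other genes. The 6 above 1 were Sema3d at 1.54 (1.33 to 1.79), Sema3b at 1.49 (1.30 to 1.72), Plxnd1 at 1.20, Sema4d at 1.19, Nrp1 at 1.10 and Sema6a at 1.10. Sema3g (1.42), Plxnb3 (1.10), Sema3c (1.05), Sema5a (1.04) and Plxnb1 (1.03) also had ratios above 1, with intervals that included 1. Ratios above 1 mean higher in the library with the thymic, epithelial and smooth muscle markers. Whether those tissues contributed to any of these genes was not tested. The lowest ratios were 0.657 (0.564 to 0.765) for Sema3e, 0.702 for Plxnc1, 0.718 for Sema7a, 0.745 for Sema6b and 0.762 for Sema6c, in the direction of the skeletal muscle, neuronal and radial glia sums, whose part in them was not tested either. Plxnb2, at 0.999 (0.958 to 1.04), was the most even.

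**Figure D4:**
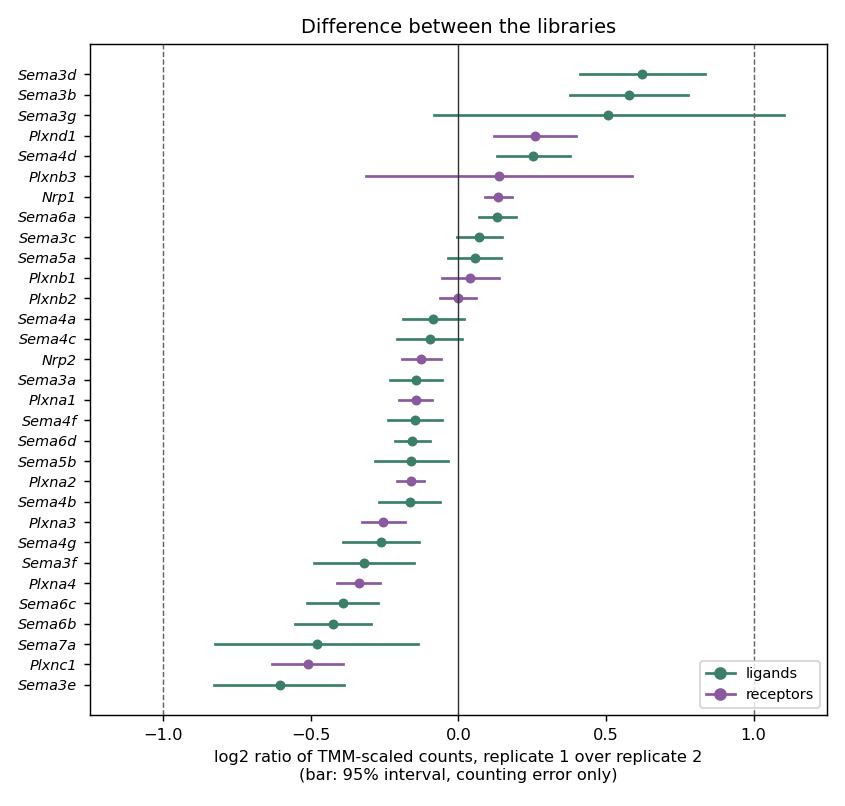
Log2 ratio of scaled counts, replicate 1 over replicate 2, for each member (point) with its 95% interval from counting error alone (bar), ligands in green and receptors in purple, and dashed lines at 2-fold. Every point lies inside the dashed lines, with Sema3d and Sema3b at the top and Sema3e and Plxnc1 at the bottom.

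Each member's leading transcript was annotated as coding in 31 of 31 genes. It held a median of 77.6% and 81.7% of the gene's TPM in replicates 1 and 2. The matching values over all genes were not computed. In 6 genes, Sema3d, Sema3g, Sema5a, Sema7a, Plxna4 and Nrp1, a single transcript was listed, so its share was 100% by construction. For those 6 and for Sema3a, Sema6b and Plxna1 only coding transcripts were listed, so a coding leader was fixed. The leading transcript held 85% or more in 14 genes, those 6 among them. It held under 50% in 7, which were Sema4a, Sema4c, Sema6a, Sema6c, Sema6d, Plxnb2 and Nrp2. Sema4a, with 19 listed transcripts, was the most divided by number, the one leading by mean at 23.0% and 33.3%. The leading transcript was another one in replicate 2 than in replicate 1 for 2 of 24 detected members with several transcripts, Sema4a and Sema6a, where 8.94% of such genes changed.

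Transcripts annotated as other than protein-coding made up a large part of some genes' TPM. The coding share averaged 52.8% in Sema6c, 61.3% in Sema6a and 64.2% in Sema5b among the ligands, and 48.4% in Plxnb2 and 55.0% in Plxna3 among the receptors. Transcripts with a retained intron took 29.8% and 31.6% of Sema5b TPM, 39.4% and 38.1% of Sema6a TPM and 41.7% and 43.1% of Plxna3 TPM. By counts, which do not divide by length, these shares were lower. They were 12.2% and 10.4% in Sema5b, 22.4% and 20.7% in Sema6a and 9.17% and 8.66% in Plxna3. In both libraries 9 members, among them Sema3a, Sema7a, Plxna4 and Nrp1, had 99.9% or more of their TPM in coding transcripts. Only coding transcripts are listed for these 9 genes, so the annotation fixed that share. The bodies of 18 members overlap 33 other annotated genes, 12 of them with a gene on the opposite strand. Nothing read here states whether counting used strand, so reads shared with such genes cannot be assigned for certain. The tables used here list 20 of those 33 genes, and 2 of the 20 reached 1 TPM in both libraries, Gm37783 at 5.93 and 6.55 TPM and Gm38036 at 1.17 and 1.36 TPM, both inside Plxna2 on its own strand.

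**Figure D5:**
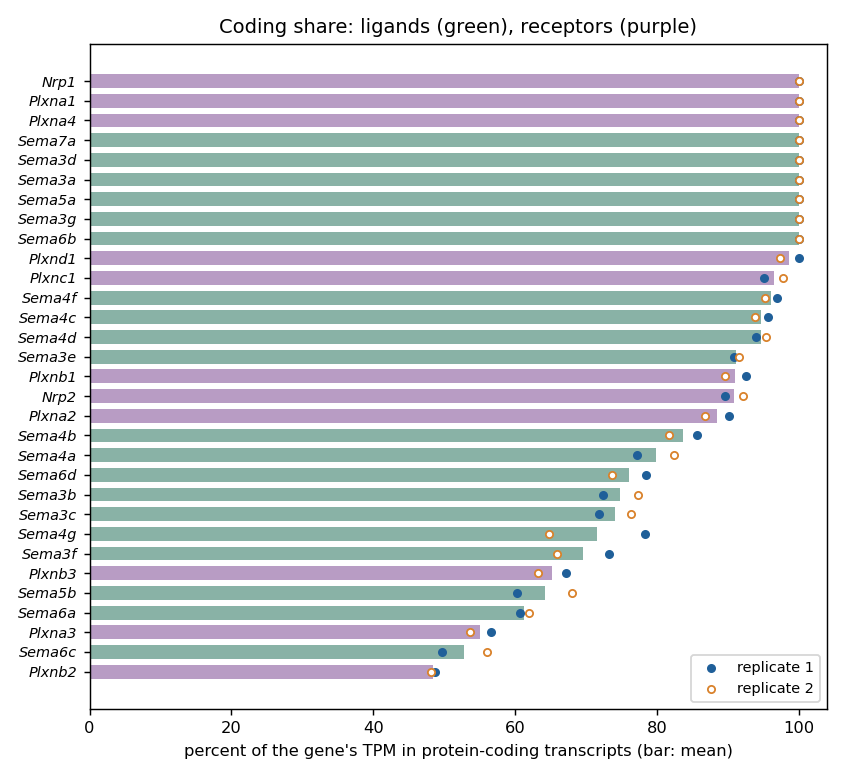
Percent of each gene's TPM in transcripts annotated as protein-coding (bar, mean; points, single libraries), ligands in green and receptors in purple, ordered from the highest at the top. Plxnb2 (48.4%), Sema6c (52.8%) and Plxna3 (55.0%) are the lowest bars. At or near the right end lie 9 genes for which only coding transcripts are listed.

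The partners and effectors through which the receptors act were also present. Of 59 genes in 5 lists, 58 reached 1 TPM in both libraries, where 63.4% of all protein-coding genes did. Of the 58 that passed the filter, 0 differed by 2-fold between the libraries, where 5.32% of all passing genes did. The lists were chosen with earlier results known, so these counts do not set them apart from other genes. Among 15 co-receptors and partners at the membrane, 14 were detected, led by the Sema7a receptor subunit Itgb1 at 97.8 and 75.2 TPM and the Nrp1 partner L1cam at 70.8 and 78.5 TPM. Chl1, another cell adhesion partner of Nrp1, had 37.2 and 47.7 TPM. The undetected gene, Timd2, named as a Sema4a receptor on T cells, was listed at 0 and 0.04 TPM, and the receptor tyrosine kinase Met was the lowest detected, at 2.60 and 2.19 TPM. The CRMP genes far exceeded the receptors in TPM. All 8 Mical and CRMP genes were detected, with Dpysl2, the collapsin response mediator of Sema3a signalling, at 819 and 959 TPM and its relatives Dpysl3 at 817 and 940 TPM and Crmp1 at 546 and 647 TPM. The actin-oxidising Mical enzymes were lower, down to 4.81 and 2.96 TPM for Mical2 and 8.10 and 9.38 TPM for Mical3.

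All 9 kinases of the growth cone response were detected. The GTPase effector Pak3 had 179 and 201 TPM, the cofilin kinase Limk2 115 and 128 TPM and the CRMP kinase Gsk3b 106 and 118 TPM. The lowest were Fes, a kinase that binds Plxna1, at 4.86 and 2.79 TPM and Limk1 at 18.6 and 22.2 TPM. Among 18 small GTPases and regulators, all detected, Rac1 had 258 and 235 TPM, Rhoa 249 and 213 TPM and Rap1b, a substrate of the plexin domain, 181 and 170 TPM. The exchange factor Farp2, which binds Plxna1, had 4.35 and 3.98 TPM and Rhod 7.16 and 3.70 TPM. Adaptors and processing enzymes were all detected too, 9 of 9. Gipc1, the adaptor for the neuropilin end shown above, had 96.3 and 92.5 TPM, Nck1 54.0 and 50.3 TPM and the sheddase Adam10 48.9 and 43.5 TPM. Furin, which cleaves class 3 semaphorins, was the lowest at 5.10 and 4.63 TPM, below Ranbp9 at 6.70 and 7.49 TPM.

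By median, the members' promoters were richer in CpG than all promoter windows together. Of the 31 genes, 26 had a window in the RefSeq table for GRCm38.p6, from 250 bases before to 50 after the start. The first window listed for each gene was used, which need not be the start used in this tissue. The windows were not limited to genes expressed here. Their median GC content was 65.0% against 52.7% over all 27025 windows, and their median ratio of observed to expected CpG was 0.67 against 0.39. The low end held Sema4d and Plxnb3 at 0.13, Sema4a at 0.15 and Sema3a at 0.16, and the high end Nrp2 at 0.99 and Sema3c at 0.98. Of those 4 low genes Sema4d, Sema4a and Sema3a averaged 10.6, 23.4 and 16.2 TPM and Plxnb3 0.665 TPM, so low and high levels both occurred there. Those 4 genes and Sema3g, at 0.31, lay below the median of all windows.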

How the data were processed

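For both libraries the authors deposited tables of genes and of transcripts on mm10 and GENCODE release M4, made from alignments to the transcriptome, per the notes beside the files. Which aligner and quantifier were used, and whether strand was, is not given in the sources. An expected count, named so per the file headers, divides ambiguous reads among the transcripts they match. TPM was deposited by the authors and is scaled over all entries, spike-ins included. FPKM and the percent of TPM that each transcript gives its gene were deposited by the authors too, with posterior mean versions of these values. Expected counts summed to 35430338 and 42321669 over all entries, of which spike-ins took 2.12% and 2.28%. Spike-ins and 26248 number-only entries were left out of counts of genes.

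Gene names, types and coordinates came from GENCODE M21 (GRCm38), matched by identifier without version for 42462 of 43346 genes. Transcript sequences came from the same release and promoters from RefSeq.

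Detection meant at least 1 TPM in both libraries. Apart meant an absolute log2((TPM + 1) ratio) past 2-fold, a mean of at least 1 TPM and 50 summed counts. Count ratios used edgeR 4.0.16 TMM scaling of expected counts rounded to whole numbers, with exact (Clopper-Pearson) 95% intervals. DESeq2 1.42.0 size factors served as an alternative, in R 4.3.3. Other steps ran in Python 3.11.15 with pandas 2.3.3 and scipy 1.17.1. The rule for genes apart was run on simulated data, with planted changes well above its cutoff in genes of ample counts. That run cannot speak to changes near the cutoff or to genes of few counts. No p-value was computed, because 1 group of 2 pools allows no test between conditions.

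The members, pathway lists, marker lists and pairs were chosen with earlier results of these data known. All members are named, and from each pathway list its 3 highest genes at most and its 2 lowest. Exons, overlapping genes and promoter extremes were named after their values were seen. Alternatives covered the pseudocount, unit, scaling, filters and single libraries.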

Additional observations from a re-analysis of the deposited data

Results flagged for a closer look

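A pair of antisense genes inside Plxna4 gave signal outside the members measured, above the limit that a count of 0 allows. Plxna4os1, on the strand opposite to Plxna4, had 0.50 and 0.56 TPM in replicates 1 and 2, from 21 and 28 estimated counts, where 3 counts stand for 0.0714 and 0.06 TPM. Plxna4os2 had 0.81 and 1.40 TPM from 35 and 72 counts, where 3 counts stand for 0.0694 and 0.0583 TPM. Plxna4os3 was listed at 0 in both libraries. Without known use of strand, reads of these genes and of Plxna4, which had 9.15 and 11.3 TPM, cannot be told apart for certain.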

How the results depend on the processing

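The difference of ligands minus receptors in mean log2(TPM + 1), -0.51, stayed negative under all 9 alternatives. It was -0.54 with a pseudocount of 0.1 TPM, -0.49 on FPKM, -0.48 on posterior mean TPM, -0.69 over members at or above 1 TPM in both libraries, -0.80 as a difference of medians over genes, -0.53 over protein-coding transcripts alone (added after seeing the data), and -0.51 without either library. The ratio of summed ligand to receptor TPM, 1.15, was 1.19 on posterior means and 1.12 over coding transcripts alone. The median share of the leading transcript, 79.7% (mean of both libraries), was 75.6% on posterior means and 77.6% to 81.7% with 1 library left out. Detected members numbered 30 at 0.5 TPM and 25 at 5 TPM. The count of members apart by 2-fold was 0 under both count scalings, a pseudocount of 0.1, a minimum of 5 TPM and no filter. It was also 0 at 1.5-fold on the (TPM + 1) scale. With 1 added to each value, the largest log2 ratio over detected members was 0.50 in TPM, 0.57 with TMM and 0.56 with DESeq2 scaling. With nothing added, the TMM-scaled count ratios of Sema3d (1.54) and Sema3e (0.657) lay beyond 1.5-fold. Single ratios turned to the other side of 1 in 3 cases: Sema4d to Plxnb1 without replicate 1 (0.994, against 1.04 without replicate 2), and Sema6a to Plxna2 (0.891) and Plxna1 to Plxna3 (1.41) over coding transcripts alone. Leaving out noncoding transcripts is what the coding measure does by construction. Over coding transcripts alone class 4 semaphorins (87.0 TPM) also passed class 6 (75.5 TPM), and 18 of 447 pairs of members turned their order. Of 111 values for single genes, classes and ratios under alternatives other than leaving out a library, 63 stayed within 1 SD, 46 moved further and 2 turned. With 2 libraries, each single library lies within 1 SD of the mean by construction, so leaving one out says nothing of stability.

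No paired analysis was possible because the 2 libraries form 1 group. Both depths leave Sema3g and Plxnb3 on under 100 counts a library, and intervals cover counting error only.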
